A study of Mus musculus with 7 samples.

Results

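The AP-1 Fos and Jun family comprised 7 genes, *Fos*, *Fosb*, *Fosl1*, *Fosl2*, *Jun*, *Junb* and *Jund*, of the 21853 protein-coding genes with an annotated transcription start site (TSS). They were taken by name, and the rule used no measured value. For each gene, DNase-Seq peaks overlapping 500 nt either side of any protein-coding TSS (GENCODE vM21) were collected as promoter peaks, which gave 8 under NG, 7 under HG+NT and 7 under HG+miR-93. Peaks up to 10 kb around the gene numbered 112, 76 and 69 in the same order. DNase-Seq maps DNA that the enzyme DNase I can cut in nuclei, as at nucleosome-free promoters and enhancers.

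The cells were differentiated mouse podocytes, the epithelial cells of the kidney filter, of a conditionally immortalised culture carrying a thermosensitive T antigen. All were growth-arrested in reduced serum and then kept 36 h in normal glucose at 5 mM (NG) or high glucose at 25 mM, the latter with a mimic transfected at 50 nM, either non-targeting (HG+NT) or of miR-93 (HG+miR-93). NG cells served as the control and no mimic is named for them, so glucose and mimic cannot be told apart between HG+NT and NG. Each condition had 2 replicates and all shared 1 genomic DNA input, but the peaks came as 1 joint list per condition, so no replicate error could be had and no difference between conditions was tested. The lists lay on mm10, whose coordinates are those of GRCm38.

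AP-1 is a dimer of basic leucine zipper proteins that binds the TPA response element (TRE). Jun proteins pair with each other or with Fos proteins, whereas Fos proteins need a Jun partner. *Fos* and *Jun* are immediate early genes that serum, growth factors and stress switch on through MAP kinases and their nuclear kinases Msk1 and Msk2, and the study examined *Fos* and *Junb* as targets of Msk2. In the kidney, AP-1 is known for driving matrix and inflammatory genes in response to glucose and TGF-beta.

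The DNA just upstream of 3 members is shown because they anchor the comparison of the paralogues: *Fos*, the serum-inducible member, *Jun*, its main partner, and *Jund*, which had the highest pileup. Each is the 250 bases before the GENCODE TSS on the gene's strand, read from RefSeq's GRCm38.p6 assembly. Capitals mark matches on either strand to the TRE (TGACTCA), the cAMP response element (CRE, TGACGTCA), its short form (TGACG, called short CRE here, which also lies within the CRE), the GC box (GGGCGG), the CCAAT box (CCAAT), the TATA box (TATAAA) or the serum response element. The windows are chr12:85473640-85473889 on the plus strand, chr4:95052223-95052472 on the minus strand and chr8:70698699-70698948 on the plus strand.
Fos: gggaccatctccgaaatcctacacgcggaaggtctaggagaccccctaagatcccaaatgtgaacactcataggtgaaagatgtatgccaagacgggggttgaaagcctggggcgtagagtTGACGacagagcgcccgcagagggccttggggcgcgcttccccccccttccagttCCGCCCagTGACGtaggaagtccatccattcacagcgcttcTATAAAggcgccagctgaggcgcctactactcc
Jun: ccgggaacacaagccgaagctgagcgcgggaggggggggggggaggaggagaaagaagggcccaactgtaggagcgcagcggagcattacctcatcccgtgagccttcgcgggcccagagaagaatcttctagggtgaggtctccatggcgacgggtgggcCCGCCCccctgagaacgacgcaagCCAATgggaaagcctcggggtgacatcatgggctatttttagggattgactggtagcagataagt
Jund: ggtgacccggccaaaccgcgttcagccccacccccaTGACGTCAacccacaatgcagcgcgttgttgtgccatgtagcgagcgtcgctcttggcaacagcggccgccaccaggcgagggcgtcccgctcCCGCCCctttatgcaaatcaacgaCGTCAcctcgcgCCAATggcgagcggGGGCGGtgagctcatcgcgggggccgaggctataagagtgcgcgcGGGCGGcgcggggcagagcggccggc

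The *Fos* window held 2 short CREs, at -129 and -66 from the TSS, a GC box at -74 and a TATA box at -33. The *Jund* window held a full CRE at -214, 3 GC boxes and a CCAAT box at -85, and it had 33 CpG dinucleotides against a median of 9 over all promoters. The *Jun* window held a GC box at -89 and a CCAAT box at -65. Of the 54317 windows of the same length before protein-coding TSSs, 3.74% held a TRE, 1.82% a CRE, 20.03% a short CRE, 40.1% a GC box, 32.8% a CCAAT box, 10.4% a TATA box and 1.18% a serum response element.

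The RefSeq promoter table held 6 of the 7 members, and *Fosl1* had no entry. Among these 6, a short CRE stood in the windows of *Fos*, *Fosb*, *Fosl2*, *Junb* and *Jund*. A TATA box stood in those of *Fos*, at -33, and *Junb*, at -30. The serum response element and the TRE had no match in any of the 6 windows. The RefSeq start lay 0 nt from the GENCODE TSS for *Fos* and *Jun*, and 671 nt from it for *Fosl2* and 1210 nt for *Jund*, so the windows follow GENCODE.

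The measure for each gene was the pileup at the summit of its promoter peak, the number of overlapping fragments there expressed at the depth of the input. It is read at 1 base, so gene length does not enter it. Each pileup is followed by the 95% exact Poisson interval of its fragments. Intervals cover counting error only. They leave out that each value was picked as the highest of its peak. How this choice acts on lists of unequal depth was not tested. A gene's percentile ranks its pileup among the 21835 protein-coding genes with a promoter peak in all 3 lists. The lists differed in depth, at 2.24 times the input under NG, 3.85 times under HG+NT and 5.15 times under HG+miR-93, so that the median promoter summit rested on 13, 19 and 25 fragments and the NG values are the least precise. Genes used by podocytes were open to differing degrees: *Actn4*, an actin crosslinker, had percentiles of 86.3, 93.1 and 91.7, whereas *Nphs1*, which encodes the slit diaphragm protein nephrin, had percentiles of 31.2, 40.2 and 44.5. The median percentiles of the 3 endothelial markers were 43.4, 40.2 and 44.5, those of the 2 mesangial markers 30.6, 59.8 and 44.5, and those of the 2 leukocyte markers 25.8, 30.4 and 29.0.

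As a family the members had high promoter pileups, with median percentiles of 93.4 under NG, 96.6 under HG+NT and 95.3 under HG+miR-93. The input was high there too. Its local mean was at least 4 fragments at 5, 6 and 5 members, and at 29.4%, 29.0% and 28.8% of all promoters. By the deposited fold over the input, the members' percentiles spread from 47.9 to 90.7 under NG, 69.6 to 95.9 under HG+NT and 19.4 to 99.2 under HG+miR-93. Percentiles by fold take every gene's promoter peak of the highest fold, so the peaks ranked can differ from those ranked by pileup. The deposited peak statistics were weak all the same: the -log10 p at these summits ran from 0.771 to 5.34, and the -log10 q was 0 throughout except at *Jund* in HG+NT, where it was 0.520.

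**Figure D1:**
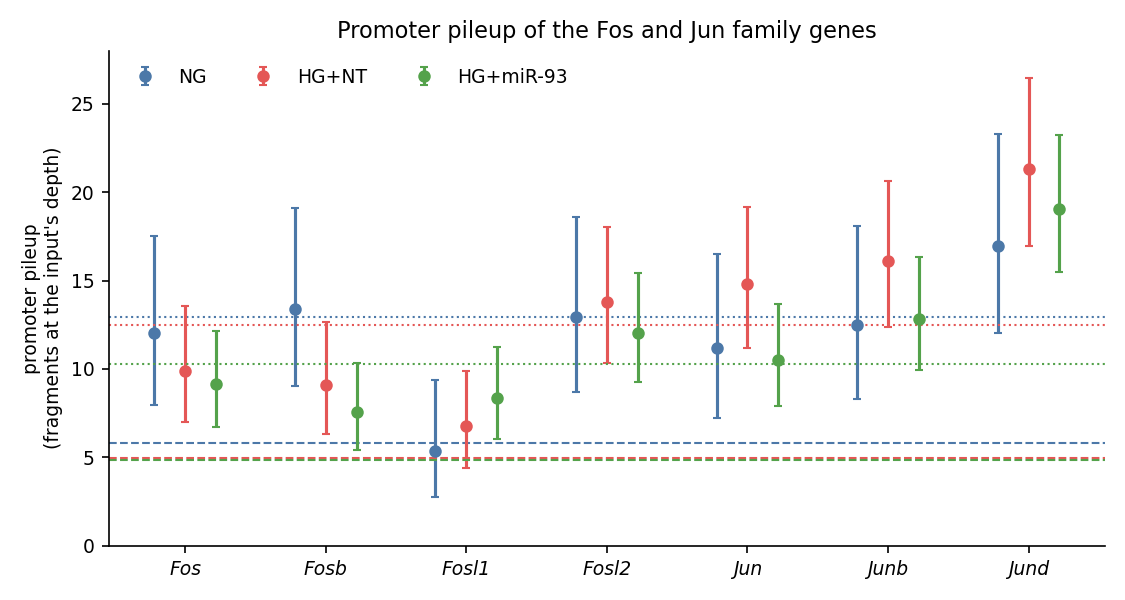
Promoter pileup (fragments at the input's depth) of each member by condition. Points are single pooled lists, bars the 95% Poisson intervals, dashed lines the median and dotted lines the 95th percentile of 21835 genes per list. *Jund* stands highest in all 3 lists, from 17.0 to 21.3, and *Fosl1* starts below the all-gene median in NG at 5.36.

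Among the Fos proteins, c-Fos is the partner of Jun that serum induces for a short time. Its gene lies on chromosome 12 from 85473890 to 85477273. The *Fos* pileup was 12.1 (7.95 to 17.5) under NG, 9.87 (6.98 to 13.5) under HG+NT and 9.13 (6.71 to 12.1) under HG+miR-93. The 3 intervals overlapped broadly. By rank the promoter stayed in nearly the same place, with percentiles of 91.8, 89.0 and 91.7.

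The *Fos* summit moved along the promoter, from -60 nt under NG to -296 nt under HG+NT and -10 nt under HG+miR-93. The HG+NT summit fell beside a match to the serum response element, a motif known for binding serum response factor and its Elk partners, which relay MAP kinase signals. The 81 bases around the summit are shown for that reason, chr12:85473554-85473634 on the plus strand, with the element and a short CRE in capitals.
Fos, HG+NT summit: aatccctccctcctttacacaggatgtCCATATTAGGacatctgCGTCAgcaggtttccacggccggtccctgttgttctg

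The element ran from -309 to -300 and the short CRE from -292 to -288, so that the summit lay between them. Of the 81-base windows centred on the HG+NT promoter summits of 21835 genes, 0.284% held a serum response element and 8.08% a short CRE. The position of a summit is the single highest base of a broad peak, here 5721 bp wide, and its own error could not be measured from 1 list.

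FosB is a serum-induced relative of c-Fos, and its gene lies on chromosome 7 from 19302696 to 19310051 with 3 protein-coding TSSs. The *Fosb* pileup was 13.4 (9.04 to 19.1) under NG, 9.09 (6.33 to 12.6) under HG+NT and 7.58 (5.39 to 10.4) under HG+miR-93, the steepest fall of the family. The NG value came from another place than the others: its summit lay in an exon 1086 nt downstream of the nearest TSS, against -262 and -215 nt in the other lists. NG had a second *Fosb* promoter peak with its summit at -189 nt and a pileup of 10.7 (6.87 to 15.9).

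Fra-1, the product of *Fosl1*, lacks the strong activation domain of c-Fos and is itself induced by AP-1. Its gene, on chromosome 19 from 5447547 to 5455946, was the exception in the family. The *Fosl1* pileup was 5.36 (2.77 to 9.36) under NG, 6.75 (4.41 to 9.89) under HG+NT and 8.36 (6.05 to 11.3) under HG+miR-93, and it was the sole member whose value was higher in each list of this sequence than in the one before. Its percentiles were 47.8, 71.0 and 88.3. The summits stayed in an untranslated exon, 146, 212 and 167 nt past the nearest TSS. The input was low there, at 1.80, 1.66 and 2.00 fragments, against medians of 2.58, 2.40 and 2.40 over all promoters.

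Fra-2, the product of *Fosl2*, lacks the same domain, and its gene lies on chromosome 5 from 32135801 to 32157842. The *Fosl2* pileup was 13.0 (8.67 to 18.6) under NG, 13.8 (10.3 to 18.0) under HG+NT and 12.05 (9.24 to 15.4) under HG+miR-93. It was the steadiest of the Fos genes, with percentiles of 94.7, 96.6 and 97.6. Its 3 summits lay within 100 nt of the TSS, at -64, 10 and -81 nt.

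Of the Jun proteins, c-Jun is the activator that JNK phosphorylates. Its gene lies on chromosome 4 from 95049034 to 95052222. The *Jun* pileup was 11.2 (7.23 to 16.5) under NG, 14.8 (11.2 to 19.2) under HG+NT and 10.5 (7.88 to 13.7) under HG+miR-93. HG+NT was the highest list, but its interval overlapped both others. In NG the summit lay at -658 nt, near the start of the antisense transcript *Junos*, whereas in HG+NT and HG+miR-93 it lay at -95 and -76 nt.

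JunB, which tempers c-Jun and has its own targets, is encoded on chromosome 8 from 84974484 to 84978718. The *Junb* pileup was 12.5 (8.31 to 18.1) under NG, 16.1 (12.3 to 20.6) under HG+NT and 12.8 (9.92 to 16.3) under HG+miR-93. Its summits never reached the TSS: they lay at -1778, -1284 and -1520 nt, upstream of the gene within peaks of 8681 to 10287 bp that also covered the promoter. Of all promoter peaks, 35.5% under NG, 37.8% under HG+NT and 37.8% under HG+miR-93 had their summit more than 500 nt from a TSS.

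JunD, the broadly expressed member that restrains growth in many cells, is encoded on the same chromosome from 70698949 to 70700616. The *Jund* pileup was 17.0 (12.01 to 23.3) under NG, 21.3 (16.9 to 26.4) under HG+NT and 19.05 (15.5 to 23.2) under HG+miR-93. Its percentiles were 99.3, 99.6 and 99.9. The summits lay at -242, -163 and -88 nt, within the sequence printed for the gene, and the NG summit lay 28 nt upstream of the CRE's first base.

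**Figure D2:**
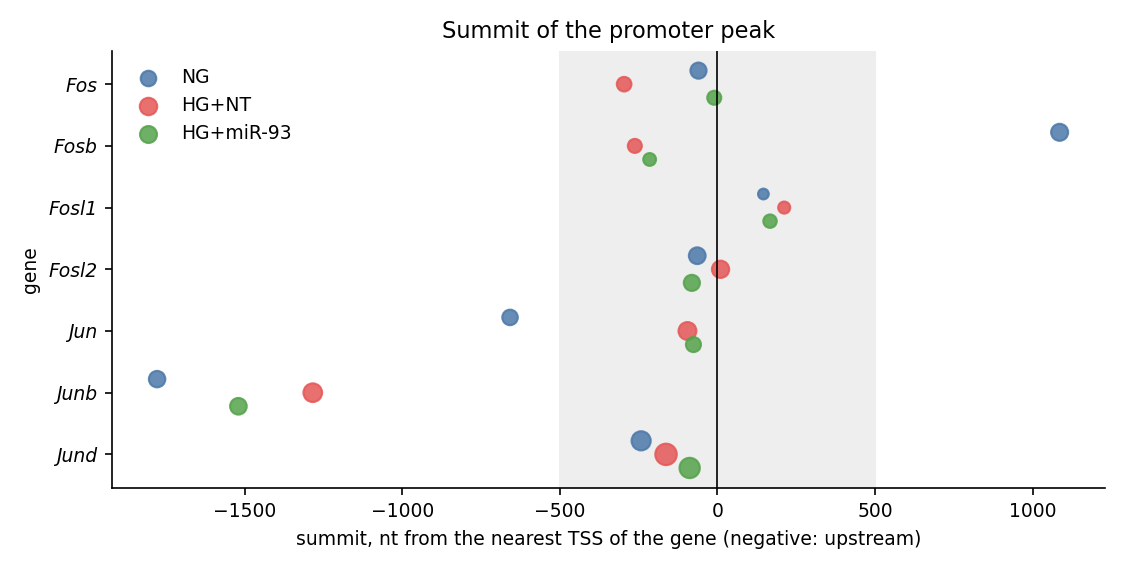
Position of the promoter summit of each member in nt from its nearest TSS, with negative values upstream, by condition (NG, HG+NT, HG+miR-93). Point area is proportional to the pileup and the grey band marks 500 nt either side. *Fosb* and *Jun* in NG and *Junb* in all 3 lists lie outside the band.

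Within each list the paralogues were then set in order, each compared with the next by the ratio of pileups and its exact binomial interval. In NG the order was *Jund*, *Fosb*, *Fosl2*, *Junb*, *Fos*, *Jun*, *Fosl1*. The last step was the one whose interval excluded 1, with *Jun* 2.08-fold (1.01 to 4.55) above *Fosl1*. In HG+NT the order was *Jund*, *Junb*, *Jun*, *Fosl2*, *Fos*, *Fosb*, *Fosl1*, and no neighbours differed beyond counting error. In HG+miR-93 the order was *Jund*, *Junb*, *Fosl2*, *Jun*, *Fos*, *Fosl1*, *Fosb*, and *Jund* stood 1.48-fold (1.08 to 2.06) above *Junb*.

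Of the 21 pairs in each list, 6 had an interval above 1 under NG, 11 under HG+NT and 9 under HG+miR-93. All 6 in NG were members above *Fosl1*. In HG+miR-93, *Jund* stood above each of the other 6 members, from 1.48-fold against *Junb* to 2.51-fold (1.72 to 3.74) against *Fosb*. In HG+NT, *Jund* stood above *Jun*, *Fosl2*, *Fos*, *Fosb* and *Fosl1*, up to 3.15-fold (2.01 to 5.11). In both high-glucose lists the 3 Jun genes and *Fosl2* held the first 4 places.

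This order turned when the input was divided out. The deposited fold is the pileup plus 1 over the local input mean plus 1, and pileup and input went together over 21835 promoters, with Spearman correlations of 0.724, 0.667 and 0.658 across genes, which are not independent replicates. By fold *Junb* came first in NG at 2.81, *Fosl1* in HG+NT at 2.91 and *Fosl2* in HG+miR-93 at 3.26. *Jund* had an input of 7, 7 and 6 fragments, and its folds were 2.25, 2.79 and 2.86, with percentiles by fold of 70.9, 94.6 and 97.4.

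*Fos*, *Fosb*, *Jun*, *Junb* and *Jund* ranked lower by fold than by pileup in every list, and *Fosl2* did so in NG and HG+NT. *Fosl1* ranked higher by fold in every list. The *Fos* fold was 1.87 under NG, 2.09 under HG+NT and 1.27 under HG+miR-93, with percentiles by fold of 47.9, 72.5 and 19.4. The input beneath the *Fos* summit was 6, 4.20 and 7 fragments, as the summit moved. The *Fosl1* fold was 2.27, 2.91 and 3.12, with percentiles of 76.3, 95.9 and 98.8. By both measures *Fosl1* was higher in HG+NT than in NG and higher again with the miR-93 mimic.

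**Figure D3:**
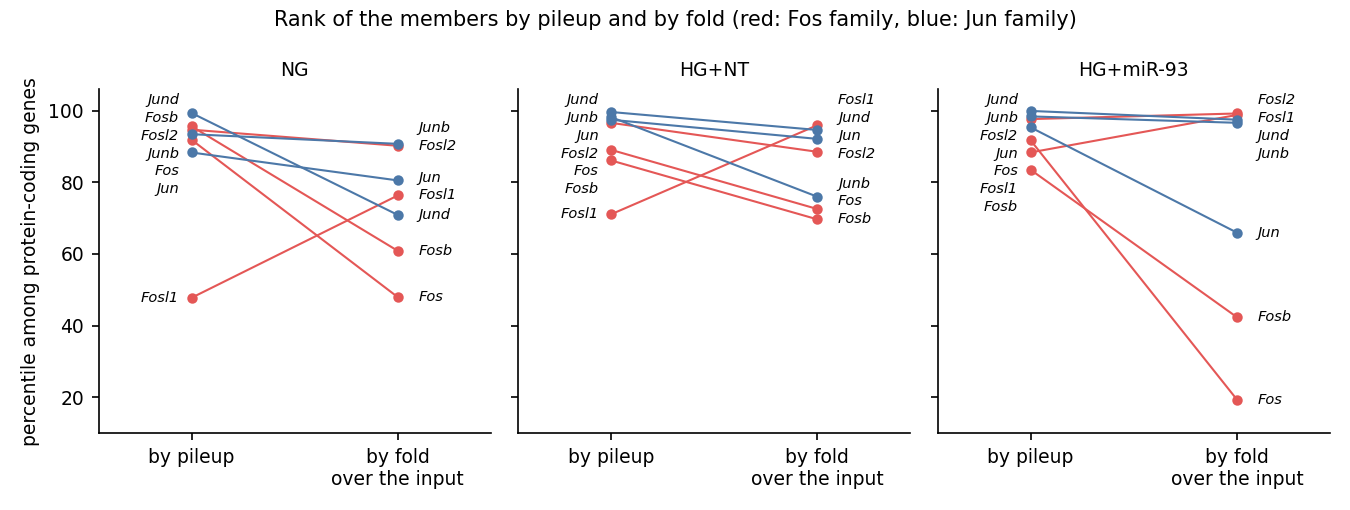
Percentile of each member among 21835 genes by pileup and by deposited fold over the input, in each condition, with Fos genes in red and Jun genes in blue. Ranks by fold take every gene's promoter peak of the highest fold. *Fosl1* climbs in each list, from 47.8 to 76.3 in NG. *Fos*, *Fosb*, *Jun*, *Junb* and *Jund* drop in each, *Fos* from 91.7 to 19.4 in HG+miR-93.

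The comparison of HG+NT with NG asks what high glucose, with a control mimic, did to these promoters. The pileup ratio was 0.82 (0.49 to 1.39) at *Fos*, 0.68 (0.40 to 1.14) at *Fosb* and 1.06 (0.66 to 1.73) at *Fosl2*, and by fold *Fos* turned to 1.12 and *Fosl2* to 0.88. It was 1.33 (0.81 to 2.21) at *Jun* and 1.25 (0.84 to 1.89) at *Jund*, both also above 1 by fold. At *Junb* it was 1.29 (0.81 to 2.09), but 0.76 by fold. At *Fosl1* it was 1.26 (0.61 to 2.74), and 1.28 by fold. The 7 intervals all held 1. The summits compared lay 1799 nt apart at *Fosb*, 563 at *Jun*, 494 at *Junb* and 236 at *Fos*, so these ratios set different places side by side. Against the second NG peak of *Fosb*, at -189 nt, its ratio was 0.85 (0.49 to 1.49).

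By pileup 5 of 7 ratios lay above 1, and the members' median of 1.25 stood beside an all-gene median of 0.894. No member reached 1.5-fold in either direction, where 5.30% of all genes were at least 1.5-fold higher and 16.9% lower. *Junb*, *Jund* and *Fosl1* lie on chromosomes 8 and 19, whose median gene ratios were 1.08 and 1.06. The median was 0.872 on chromosomes 4, 5, 7 and 12, where the others lie. With pileups divided by the median promoter pileup of the chromosome, the ratio was 1.34 at *Junb*, 1.31 at *Jund* and 1.20 at *Fosl1*. This scaling divides by the ratio of the median pileups, which is another measure than the median gene ratio. That ratio of medians was 0.958 on chromosome 8, below 1 where the median gene ratio was above it, and 1.05 on chromosome 19. It was 0.850, 0.831, 0.988 and 0.775 on chromosomes 4, 5, 7 and 12. The part of the chromosome in these ratios was not tested beyond this scaling. So scaled, *Fosb* stayed below 1 at 0.69 and *Fosl2* went to 1.28. *Fos* also turned to 1.06, and *Jun* went to 1.56, past 1.5-fold. The share of all genes past it after scaling was not computed.

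The comparison of HG+miR-93 with HG+NT isolates the miR-93 mimic in high glucose. The pileup ratio was 0.93 (0.59 to 1.46) at *Fos* and 0.83 (0.51 to 1.36) at *Fosb*, both below 1 by fold as well, at 0.61 and 0.79. It was 0.71 (0.48 to 1.05) at *Jun*, the lowest of the family by pileup, and 0.73 by fold. At *Fosl2*, *Junb* and *Jund* it was 0.88 (0.60 to 1.29), 0.80 (0.55 to 1.15) and 0.89 (0.66 to 1.21), and all 3 turned above 1 by fold, to 1.33, 1.29 and 1.03. At *Fosl1* it was 1.24 (0.74 to 2.10), and 1.07 by fold.

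By pileup 6 of 7 members lay below 1, with a median of 0.875 against 0.952 over all genes. Again no member reached 1.5-fold by pileup, where 2.17% of all genes were higher and 5.66% lower by that much, although *Fos* was past it by fold. *Jun* was thus higher in HG+NT than in both other lists by pileup and by fold, with intervals that held 1 on each side. Its NG summit lay 563 nt from that of HG+NT, so the comparison with NG read different places. Under the pileup, HG+NT was the highest list for 4 of 7 members, *Fosl2*, *Jun*, *Junb* and *Jund*, and for 25.8% of all genes. It was the lowest for 0 members and for 29.9% of all genes. By fold it was the highest for 2 members, *Fos* and *Jun*, and the lowest for 2, *Fosl2* and *Junb*. The shares of all genes by fold were not computed, neither for these counts nor for the call at *Fos*.

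Between HG+miR-93 and NG, which shares its lists with the other comparisons, *Fosb* had a ratio of 0.57 (0.34 to 0.94), the sole interval of the 21 that excluded 1. Against the second NG peak, at the same side of the TSS as in HG+miR-93, the ratio was 0.71 (0.41 to 1.23). *Fosl1* had a ratio of 1.56 (0.81 to 3.25). These were the 2 members past 1.5-fold, 1 lower, where 22.1% of all genes were lower, and 1 higher, where 4.26% were higher. The other members ran from 0.76 (0.46 to 1.26) at *Fos* to 1.12 (0.76 to 1.68) at *Jund*. Relative to the chromosome median, *Fos*, *Fosl2* and *Jun* changed side, to 1.004, 1.11 and 1.12, and by fold *Fosl2* went to 1.17 and *Junb*, at 1.03 by pileup, to 0.98.

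**Figure D4:**
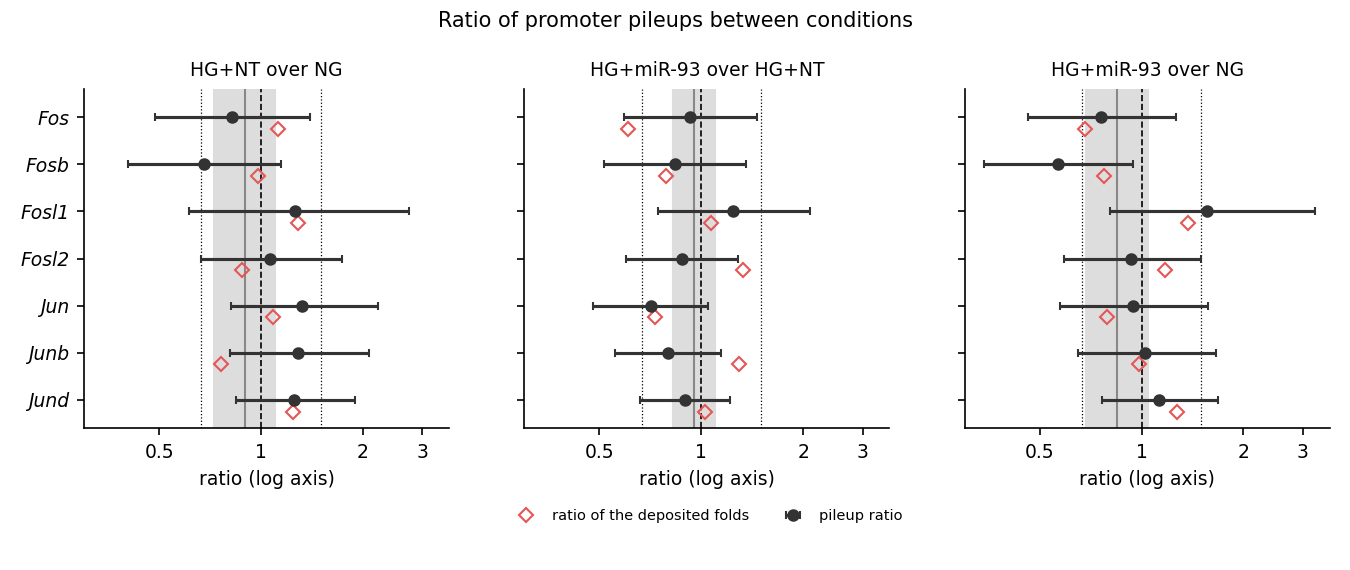
Pileup ratios of the members in the 3 comparisons on a log axis, with 95% exact binomial intervals (black) and the ratio of deposited folds (red diamonds). The grey band and line give the quartiles and median of 21835 genes, the dashed line a ratio of 1 and the dotted lines 1.5-fold. Intervals hold 1 except for *Fosb* in HG+miR-93 over NG, and *Fosl2* and *Junb* change side in all 3 panels when folds are used.

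Beyond the promoters, the strongest peak within 10 kb was the promoter peak itself for *Fosb*, *Fosl2*, *Jun*, *Junb* and *Jund* in all 3 lists. Around *Fosl1* it was the promoter peak of the neighbouring gene *Ccdc85b*, with pileups of 9.38, 9.35 and 10.7. Around *Fos* in HG+NT it was a peak downstream of the gene. That peak stood out for a second reason: its summit fell in nearly the same place in every list.

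Of the 112 NG peaks around the members, 2 had a summit within 50 nt of a summit of both other lists, or 1.79%, against 1.56% of all NG peaks. At this radius the share around the members was near that of the genome, whereas it was 1.79% against 0.5001% within 25 nt and 8.04% against 4.81% within 100 nt. The first lay downstream of *Fos*, at 12181, 12168 and 12175 nt from the TSS, 13 nt apart at most, and 11160 nt from the nearest annotated start of any transcript. Its pileup was 12.1 (7.95 to 17.5) under NG, 10.6 (7.64 to 14.4) under HG+NT and 8.75 (6.38 to 11.7) under HG+miR-93, close to that of the promoter itself, and each placed it at percentile 99.8 of all peaks of its list. Its fold was 2.61, 2.91 and 2.44, above that of the *Fos* promoter in every list.

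The second lay upstream of *Fosb*, at -10114, -10110 and -10106 nt, 8 nt apart at most, and 48 nt inside the 3' end of the lincRNA *D830036C21Rik*. Its pileup was 7.15 (4.08 to 11.6), 6.75 (4.41 to 9.89) and 6.61 (4.58 to 9.23). Both sites had overlapping intervals in the 3 lists. The 151 bases centred on the median summit are shown because the position held across lists, chr12:85485990-85486140 on the plus strand and chr7:19320086-19320236 on the minus strand, on the strand of *Fos* or *Fosb* and with the same motifs in capitals.
Fos, downstream: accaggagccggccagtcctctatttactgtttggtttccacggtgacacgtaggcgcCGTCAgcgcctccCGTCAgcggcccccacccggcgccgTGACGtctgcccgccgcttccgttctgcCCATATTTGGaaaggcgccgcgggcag
Fosb, upstream: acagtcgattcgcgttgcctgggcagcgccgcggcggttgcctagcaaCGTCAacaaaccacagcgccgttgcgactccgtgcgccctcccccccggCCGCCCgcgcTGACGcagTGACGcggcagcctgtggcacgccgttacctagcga

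The *Fos* site held 3 short CREs and, from base 125 to 134, a serum response element, the motif that also stood beside the HG+NT summit of its promoter. The *Fosb* site held 3 short CREs and a GC box. Of the 16210 windows of the same length at shared summits, 6.48% held a short CRE, 0.740% a serum response element and 5.16% a GC box. The GC content was 66.9% at the *Fos* site and 70.2% at the *Fosb* site, against a median of 47.0% over those windows.

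**Figure D5:**
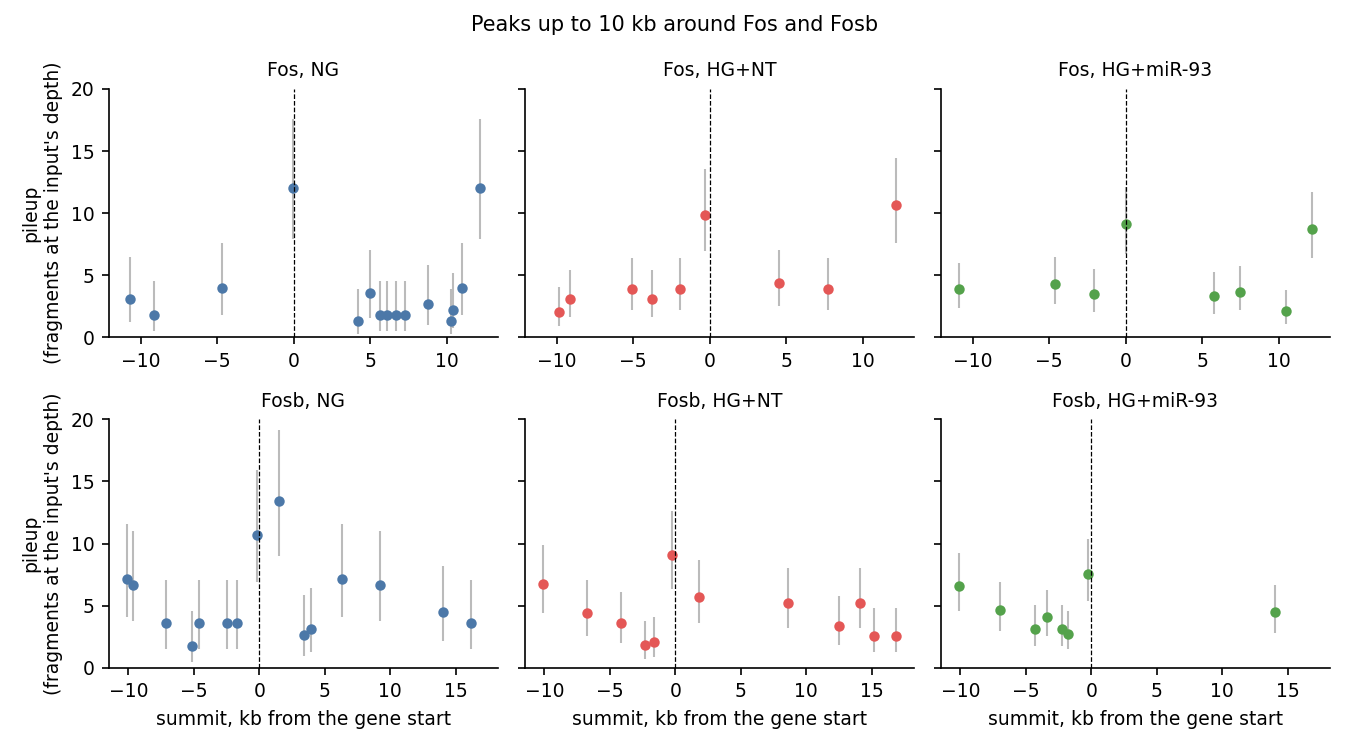
Pileup (fragments at the input's depth, with 95% Poisson intervals) of every peak up to 10 kb around *Fos* and *Fosb*, by the distance of its summit in kb from the gene start, in each condition. The promoter peak of *Fos* and the peak 12181 nt downstream of its start, seen in NG at a pileup of 12.1 for both, recur in all 3 lists, as does the *Fosb* peak at -10114 nt.

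The proteins that pair with Fos and Jun, or share their zipper, form a list of 15 genes, all measured. Their median percentiles were 83.9, 82.4 and 86.1, below those of the members. *Atf7*, a partner of Jun, ranked highest, with pileups of 17.0, 17.7 and 14.8, and *Batf*, which is used mainly in lymphoid cells, ranked lowest, with 3.57, 4.15 and 4.08. Of the 15, 0 passed 1.5-fold between HG+NT and NG, and 1, the stress-induced *Atf3*, was lower with miR-93 than with the control mimic at a ratio of 0.61. Over all genes, 5.30% were higher and 16.9% lower by that much in the first comparison, and 2.17% and 5.66% in the second. The *Atf3* pileup intervals, 15.09 to 24.1 under HG+NT and 8.90 to 15.01 under HG+miR-93, did not overlap. They too cover counting error only.

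The kinases and factors upstream of the family form a list of 12. *Map2k7*, the kinase of JNK, ranked highest, with pileups of 13.0, 18.4 and 14.6. *Mapk10*, the neuronal JNK, ranked lowest, with 4.47, 3.90 and 3.89. *Rps6ka4*, which encodes Msk2, had pileups of 8.49, 7.27 and 7.77, with ratios of 0.86 and 1.07. *Rps6ka5*, which encodes its paralogue Msk1, had 12.5, 18.4 and 14.6. Of the 12, 1 was higher and 1 lower in HG+NT than in NG, *Elk1* at 1.68 and *Elk4* at 0.65, both partners of serum response factor. *Srf* itself was the 1 gene lower with miR-93 than with the control mimic, at 0.64. The all-gene shares were 5.30% higher and 16.9% lower in the first comparison, and 5.66% lower in the second. Pileup intervals of *Elk1*, *Elk4* and *Srf* overlapped between the lists compared, and *Elk1* rested on 9 fragments in NG.

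The 12 target genes had median percentiles of 47.8, 69.9 and 47.9. *Vim*, the intermediate filament of mesenchymal cells and podocytes, ranked highest, with pileups of 8.93, 10.4 and 10.7, and the matrix metalloproteinase gene *Mmp3* lowest, with 3.57, 2.08 and 2.33. In HG+NT against NG, 1 was higher, the chemokine *Ccl2* at 1.74, and 2 were lower, *Mmp3* at 0.58 and *Mmp13* at 0.52. Of all genes, 5.30% were higher and 16.9% lower. *Mmp3* rested on 8 fragments in both of these lists, and the *Mmp13* summits lay at -375 and -1581 nt. In HG+miR-93 against HG+NT, 2 were lower, *Ccl2* at 0.64 and the adhesion receptor *Cd44* at 0.63, where 5.66% of all genes were. Pileup intervals of *Mmp3*, *Mmp13* and *Cd44* overlapped between the lists compared. *Ccl2* was the gene of these lists past 1.5-fold in both comparisons, with pileups of 4.02 (1.84 to 7.63), 7.01 (4.62 to 10.2) and 4.47 (2.83 to 6.71) and overlapping intervals. Its NG summit lay at -5954 nt, in another place than the summits at -34 and 60 nt in the other lists.

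Genes whose 3 pileups were most like those of *Fos* and *Jun* were found by the Euclidean distance of log2 pileups over the 3 lists. For *Fos* they were *Pdzd7*, *Sfxn3* and *Pdzd8*, at distances of 0.04, 0.04 and 0.05, among 28 genes within 0.1. For *Jun* they were *Rad23b*, *Pard6b* and *Nr3c2*, at 0.03, 0.06 and 0.06, among 5 genes within 0.1. Within the family the closest pair was *Fosl2* and *Junb*, at 0.25.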

How the data were processed

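DNase-Seq was measured in 6 samples of cultured podocytes, 2 per condition, with 1 genomic DNA input. The authors demultiplexed with CASAVA 1.8.2 (per the labels), trimmed with TrimGalore!, mapped to mm10 with Bowtie, removed duplicate reads and ran MACS2 with the input as control. The settings are not given in the sources used here. The 3 deposited lists, 1 per condition and named as joint sets, hold the fold over the input (a ratio), the -log10 p and -log10 q of each peak, and its summit. The authors' lists hold no replicate values.

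The fold and -log10 p, deposited to 5 decimals, are both set by the fragments at the summit and the local input mean, which lay on a grid of 0.02 or at the background mean. The pair was solved for each of 1036304, 846027 and 900109 peaks, uniquely for 100%, 99.997% and 100%, and the solver was tested on simulated data. Pileups are fragments times 0.447, 0.260 and 0.194 for NG, HG+NT and HG+miR-93, which brings each list to the input's depth. Where a gene had several promoter peaks, that with the highest pileup was used. Percentiles by fold instead took every gene's promoter peak with the highest fold. Intervals are 95% exact Poisson for pileups and exact conditional binomial for ratios, and a call is a ratio of at least 1.5 in either direction. Fragments without molecular identifiers are not independent molecules, so intervals cover counting error only.

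Members, lists and tests were chosen with earlier results of these data known. All members are named; of the other lists, the genes with the highest and lowest mean percentile, those past the call in both HG comparisons, and *Rps6ka4*; for *Fos* and *Jun*, the 3 nearest genes. Genes beyond this rule (those counted past the call, *Rps6ka5*, *Ccdc85b* and the markers) were named after their values were seen, and 1 marker is not reported here. The motif windows follow GENCODE starts where the plan named RefSeq's. Alternatives were another window, peak choice, summit limit, solution, chromosome scaling, measure, fold and flank. Python 3.11.15, SciPy 1.17.1, pandas 2.3.3 and samtools 1.23.1 were used.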

Additional observations from a re-analysis of the deposited data

How the results depend on the processing

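No paired analysis was possible because each condition had 1 pooled list without replicate values, which also left no replicate to leave out. Of 121 values of the members' ratios under the alternatives, 118 stayed within the main interval and 3 left it, all with the deposited fold. *Fosl2* and *Junb* in HG+miR-93 over HG+NT went to 1.33 and 1.29, and *Junb* in HG+NT over NG to 0.760. Most of the 121 say little, because the same peak was measured again. The wider window, the other peak choice and the other solution returned the main ratio for every member. The summit limit changed only the *Fosb* ratios against NG, to 0.85 and 0.71, among members that kept a peak. In 12 of the 121 values the ratio lay on the other side of 1, 8 with the fold and 4 with chromosome scaling. Members past 1.5-fold went from 0 to 1 in HG+NT over NG with chromosome scaling (*Jun*, 1.56), and from 0 to 1 in HG+miR-93 over HG+NT with the fold (*Fos*, 0.61). In HG+miR-93 over NG they went from 2 to 1 with summits limited to 500 nt of a TSS and with chromosome scaling, and to 0 with the fold or at 2-fold. The share of all genes was not computed for these alternative counts. Limiting the summits left 6 members between HG+miR-93 and HG+NT, since *Junb* had none in any list, and 5 wherever NG entered, since *Jun* had none there. Members with HG+NT highest then went from 4 to 2, as *Jun* and *Junb* were no longer counted. The median percentile in HG+NT went from 96.6 to 82.7 over the 5 members left. *Jun* and *Junb*, which dropped out, had percentiles of 97.4 and 98.2 there. The limit also changed the set of genes ranked, and the part of each in the shift was not tested. With a radius of 100 nt, chosen after the data were seen, shared summits rose from 2 to 9, and from 1.56% to 4.81% of all NG peaks. Depth limits every comparison: NG intervals of the members span about the size of a 1.5-fold change in either direction.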
